A study of Mus musculus with 9 samples.

Results

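The genes described here are the 49 DNA replication genes of a list drawn up by name, from the origin recognition complex to the enzymes that make deoxynucleotides. They were found by symbol in a table of read counts for mouse embryonic stem cells, and all 49 of 49 were present among its 23366 rows. RNA from 9 samples is listed in the series, in 3 groups of 3. Wild-type cells and cells in which the histone deacetylase gene Sirt6 was knocked out were compared here, and wild-type cells deprived of glucose were not analysed here. Both groups compared were 129 SvJae F1 embryonic stem cells taken at passage 21 from a medium of serum and leukaemia inhibitory factor (LIF). The labels name neither clones nor separate cultures, so p-values speak only of the spread from library to library, which may be technical. By its title, the series concerns SIRT6 and the pausing of RNA polymerase II near promoters. The list was proposed with differences between knockout and wild type in view. The differences and calls of its members are therefore given as a description and support no statement about the list as a whole.

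A genome is copied from many origins. In G1 the origin recognition complex (ORC), with CDC6 and CDT1, loads the ring-shaped MCM2 to MCM7 helicase onto DNA, a step called licensing. In S phase the kinase CDC7 and the factors CDC45 and GINS turn the loaded ring into an active helicase, polymerase alpha with primase lays down primers, and polymerases delta and epsilon extend them on the sliding clamp PCNA, which replication factor C loads. Many of these genes are transcribed at the G1/S boundary under E2F transcription factors. Mouse embryonic stem cells have a short G1 phase and spend much of their cycle in S phase.

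Total counts per library ran from 20107037 to 29267115. Sirt6 counts were 348, 341 and 342 in wild type against 12, 6 and 6 after knockout, in the direction of the labels. Of 10 embryonic stem cell markers 5 were lower (Pou5f1, Nanog, Utf1, Lin28a and Sall4) and 3 higher (Sox2, Dppa5a and Tdgf1). Their summed level was 6384 to 6970 CPM, the count per 1000000 counts of the scaled library total, in wild type and 6561 to 8160 CPM in the knockout. The stem cell regulators Pou5f1 and Sox2 had means of 1651 and 324 CPM in wild type and 1199 and 428 CPM in the knockout. These ranges overlapped. Sall4 was at -0.93 and Tdgf1 at 0.89 on the log2 scale. Dppa5a, at 1212 and 2054 CPM in wild type and knockout, and Tdgf1, at 793 and 1468 CPM, rose most in CPM among these markers. Dppa5a has only 619 exon bases and read 1402, 2076 and 2683 CPM in the knockout, so the length trend described below can enter its value. Of 13 fibroblast markers, which would show feeder cells, 8 passed the filter on low counts, with 5 higher and 3 lower. Their sum was 724 to 810 CPM in wild type and 439 to 516 CPM in the knockout, and Fn1 and Vim together made up 768 and 443 CPM of it. The 5 higher genes went the other way from the sum, namely Col1a1 (0.565 and 2.11 CPM), Col1a2, Thy1 (1.38 and 5.25 CPM), Acta2 and Tagln (2.21 and 21.7 CPM), and Lum was at 0 in all libraries. Of 9 primitive endoderm markers 8 were lower, their sum running from 305 to 338 CPM in wild type and from 51.7 to 85.5 CPM in the knockout. Summed levels were 46.9 to 48.8 and 103 to 111 CPM for trophectoderm markers (3 of 7 higher), 90.9 to 96.2 and 144 to 159 CPM for neural markers (3 of 5 higher, 2 lower) and 5.06 to 6.19 and 13.9 to 16.7 CPM for two-cell-like markers (3 of 7 higher, 1 lower), Tcstv1 and Tcstv3 being at 0 throughout. The higher trophectoderm genes were Krt8, Krt18 and Tfap2c, while Eomes was not called and Cdx2, Elf5 and Hand1 did not pass the filter. Tubb3 made up most of the neural sum, at 59.3 CPM in wild type and 126 CPM in the knockout. Nes and Neurod1 were also higher, while the neural genes Sox1 and Pax6 were lower (-1.87 and -2.85 on the log2 scale). The part of these marker differences in the values below was not tested. In bulk RNA, fewer cells of a type and less RNA per cell cannot be told apart.

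All 49 replication genes passed the filter on low counts. Their wild-type means ran from 15.5 CPM for Pole3 to 821 CPM for Mcm5. In edgeR's quasi-likelihood test over 14988 genes, with p-values adjusted by the Benjamini-Hochberg method and a threshold of 0.05, 17 of the 49 fell in the knockout and 2 rose. The genome-wide shares were 27.8% for lower genes and 27.9% for higher genes, 55.7% in all. Among the members these shares were 34.7%, 4.08% and 38.8%. The groups did not overlap in 24 members, or 49.0%, against 63.2% of all tested genes. Pole2, Rfc5, Rpa1, Rrm1 and Tyms were the 5 of these that were not called. These counts come from the comparison that was in view when the list was made, and nothing is read from them. With total counts as the scaling, 10 members were lower and 5 higher, and 3101 and 5114 of all tested genes. The median log2 fold change (knockout minus wild type) was -0.15 over the 49 members and 0.01 over all tested genes, and the median of its absolute size was 0.25 and 0.44. Over the 7716 tested genes in the members' range of wild-type CPM, the median absolute size was 0.31, and 52.0% were called. Rrm2 alone of the 49 differed by more than 1 on the log2 scale, which 21.8% of all tested genes did, those outside the members' CPM range included. In the authors' deposited table, 17 members were lower and 2 higher at an adjusted p of 0.05 (of its 18300 genes with an adjusted p, 45.8% were called, 22.0% lower and 23.8% higher), and they were the same 19 genes with the same signs.

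**Figure D1:**
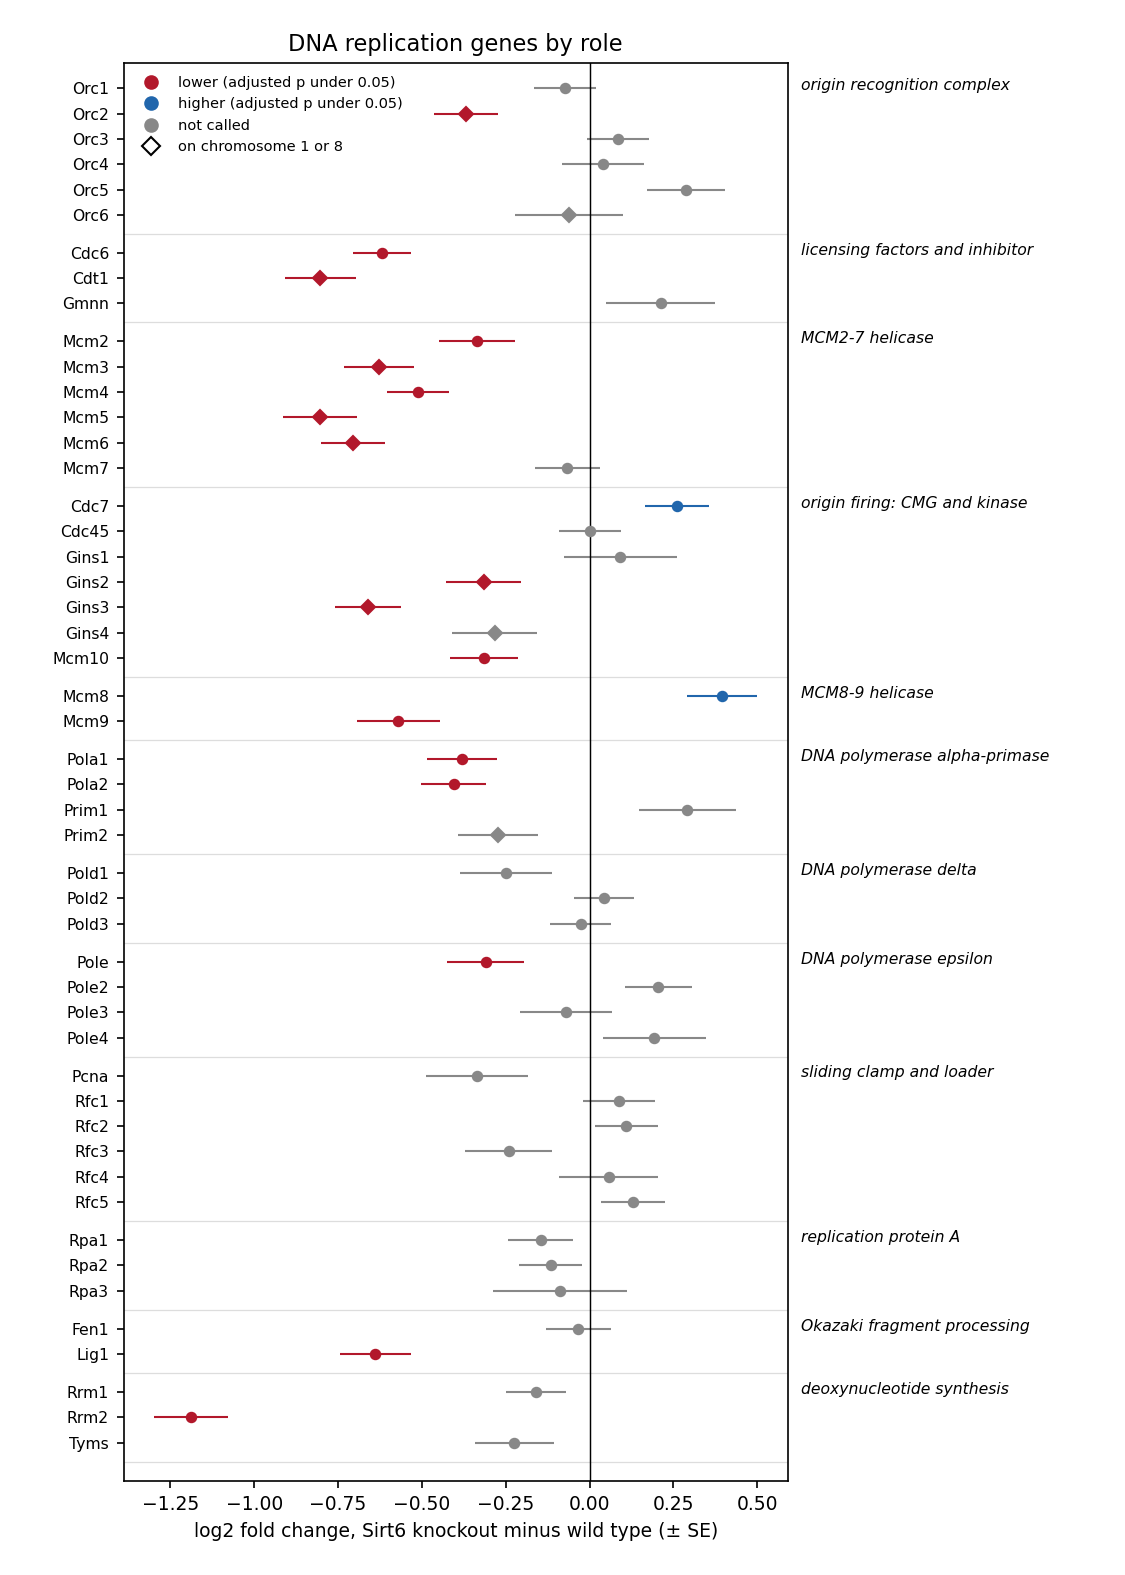
Log2 fold change of each replication gene, knockout minus wild type, with its standard error from edgeR, grouped by role (n = 3 libraries a group). Red points are called lower, blue points higher and grey points not called, and diamonds mark genes on chromosomes 1 and 8; Rrm2 lies lowest at -1.19, 5 of the 6 MCM2 to MCM7 genes are red, and the clamp, its loader and replication protein A are grey.

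Of the 24 genes of origin recognition, licensing, the helicase rings and origin firing, 12 were lower and 2 higher, where 27.8% and 27.9% of all tested genes were. Chromosomes 1 and 8, which stood low as described below, hold 9 of these 24 genes and 7 of the 12 lower ones, and on other chromosomes 5 of 15 were lower. Of the 25 genes of the polymerases, clamp, single-strand binding, Okazaki fragments and deoxynucleotides, 5 were lower and 0 higher, or 5 of 24 off chromosomes 1 and 8. The difference between these sets was not tested.

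Promoter sequence is a property that the comparison of the groups did not use. RefSeq promoters (GRCm38.p6, 250 bases before to 50 bases after each start) matched 41 of the 49 members by symbol; the others were Gins1, Gins2, Gins4, Gmnn, Mcm4, Pole, Prim2 and Rfc2. The letters TTTCCCGC, TTTCGCGC, TTTGCCGC and TTTGGCGC, the usual forms of the E2F site, were searched on both strands. They occurred in 17 of 41 members, or 41.5%, against 4.56% of 10841 tested genes and 2.61% of all 27025 genes with a promoter of the same length. By call, 8 of 14 lower members held them (Cdc6, Cdt1, Gins3, Lig1, Mcm3, Mcm5, Mcm6 and Pola1), 8 of 25 members that were not called and 1 of 2 higher members (Mcm8). The median log2 fold change was -0.25 over the 17 members with these letters and -0.08 over the 24 without. Among other tested genes it was -0.11 over 477 with the letters and 0.02 over 10323 without. CCAAT, the letters bound by NF-Y, occurred in 61.0% of members and 42.7% of tested genes, and GGGCGG, the GC box, in 75.6% and 67.6%. A match describes letters only, and these shares were not tested.

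The stretches printed here are the 170 bases before the start of 6 members with E2F letters in that stretch, out of 10 members with a match before the start, and of Rrm2, the member with the largest difference. All 5 lower members with such a match were chosen, and of the 5 that were not called Mcm7, while Orc1, Orc3, Pole4 and Rfc3 are left out, so the printed set does not show how often either kind has a match. Capitals mark E2F letters on either strand, and overlapping matches run together, as in Mcm5 and the first block of Mcm6.
Mcm6, chr1:128359706-128359875, reverse strand: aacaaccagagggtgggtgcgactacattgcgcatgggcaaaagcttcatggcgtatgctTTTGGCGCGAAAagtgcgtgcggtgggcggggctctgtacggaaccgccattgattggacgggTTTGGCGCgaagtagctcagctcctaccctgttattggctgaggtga
Mcm5, chr8:75109339-75109508, forward strand: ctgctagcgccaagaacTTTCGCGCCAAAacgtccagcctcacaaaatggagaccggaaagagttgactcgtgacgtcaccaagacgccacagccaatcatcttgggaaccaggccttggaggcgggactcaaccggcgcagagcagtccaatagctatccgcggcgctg
Cdc6, chr11:98907981-98908150, forward strand: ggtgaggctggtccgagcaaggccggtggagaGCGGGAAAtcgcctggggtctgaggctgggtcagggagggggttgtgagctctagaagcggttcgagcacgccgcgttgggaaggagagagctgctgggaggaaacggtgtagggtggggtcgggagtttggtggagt
Pola1, chrX:93632156-93632325, reverse strand: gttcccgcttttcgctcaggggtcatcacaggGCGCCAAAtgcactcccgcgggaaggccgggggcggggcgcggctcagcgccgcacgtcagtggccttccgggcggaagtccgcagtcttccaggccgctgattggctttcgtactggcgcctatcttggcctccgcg
Gins3, chr8:95633389-95633558, forward strand: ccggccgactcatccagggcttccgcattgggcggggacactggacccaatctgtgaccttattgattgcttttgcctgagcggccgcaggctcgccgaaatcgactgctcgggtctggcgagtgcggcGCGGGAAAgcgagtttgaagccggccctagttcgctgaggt
Mcm7, chr5:138171884-138172053, reverse strand: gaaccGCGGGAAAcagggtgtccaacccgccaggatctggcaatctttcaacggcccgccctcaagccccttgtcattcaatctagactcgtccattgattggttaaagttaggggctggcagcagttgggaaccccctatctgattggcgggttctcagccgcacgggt
Rrm2, chr12:24708084-24708253, forward strand: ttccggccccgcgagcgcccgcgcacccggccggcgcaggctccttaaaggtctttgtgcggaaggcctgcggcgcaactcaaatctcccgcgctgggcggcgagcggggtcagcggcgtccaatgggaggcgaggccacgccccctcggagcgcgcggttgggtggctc
Mcm6 held 3 matches, the most in these stretches, and Mcm5 held 2. Rrm2 held none in this stretch or in its full 300 bases. In Cdt1, Lig1, Mcm3 and Mcm8, which were called, the matches lay within the 50 bases after the start. The same held for Pold1, Pold3 and Pole2, which were not called.

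Of the 6 genes of the origin recognition complex, which marks origins, Orc2 fell, and Orc1, Orc3, Orc4, Orc5 and Orc6 did not pass the test. Orc2 read 248, 243 and 259 CPM in wild type and 180.5, 200.4 and 200.0 CPM in the knockout, a log2 fold change of -0.37 ± 0.09 (± SE here and below), with no overlap between the groups. This call was lost with total counts as scaling (adjusted p = 0.0571, edgeR). Orc2 shares 24.0% of its exon bases with Nif3l1 on the other strand, and whether reads were counted by strand was not stated. The other 5 ranged from -0.07 for Orc1 to 0.29 for Orc5, which was not called (adjusted p = 0.0553, edgeR). Orc5 was called higher with total counts (0.00963), when genes under 1 CPM on average were filtered out (0.0413) and without knockout replicate 1 (0.000537). Orc6 varied widely among knockout libraries, at 78.5, 114 and 129 CPM, around wild-type values of 103, 108 and 124 CPM.

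Both licensing factors fell, and the gene of their inhibitor did not pass the test. Cdc6, an ATPase that joins ORC to load the helicase, read 103, 106 and 102 CPM in wild type and 66.7, 68.3 and 66.9 CPM in the knockout. It was 1.54-fold lower (-0.62 ± 0.09), and its knockout libraries were nearly level. Cdt1, which brings the helicase to ORC, read 168, 169.8 and 163 CPM and 108, 86.2 and 92.0 CPM, 1.75-fold lower (-0.80 ± 0.11). The lowest wild-type library was above every knockout library for both genes. Gmnn encodes geminin, which binds CDT1 and blocks relicensing, and it read 87.2, 91.8 and 104 CPM in wild type and 80.6, 114 and 134 CPM in the knockout, with overlapping groups (0.21 ± 0.16). The ratio of Cdt1 to Gmnn within a library, into which no scaling enters, was 1.92, 1.85 and 1.56 in wild type and 1.35, 0.754 and 0.687 in the knockout. All 3 knockout ratios lay below all 3 wild-type ratios, knockout replicate 1 being the highest of the knockout libraries. Cdt1 has 2189 exon bases and Gmnn 1189, so the length trend described below can enter this ratio.

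Of the 6 subunit genes of the MCM2 to MCM7 helicase, the ring that unwinds DNA at the fork, 5 fell and Mcm7 did not pass the test. Mcm5 read 801, 822 and 839 CPM in wild type and 522, 425 and 463 CPM in the knockout, 1.75-fold lower (-0.80 ± 0.11). Mcm6 read 635, 629 and 648 CPM and 401, 390.4 and 381 CPM (-0.71 ± 0.10). Mcm3 read 655, 670.3 and 678 CPM and 472, 415 and 408 CPM (-0.63 ± 0.10). Mcm4 read 369, 361 and 359.7 CPM in wild type and 255, 266 and 244 CPM in the knockout (-0.51 ± 0.09). In Mcm3, Mcm4, Mcm5 and Mcm6 the gap between the groups was wider than the range inside either group. Mcm2 read 466, 467 and 459 CPM and 424, 340.3 and 339.9 CPM (-0.33 ± 0.11), with no overlap and with knockout replicate 1 nearest to wild type. The Mcm2 call was lost with total counts (adjusted p = 0.193, edgeR) and without wild-type replicate 1, 2 or 3 or knockout replicate 2 (0.0937, 0.0867, 0.0691 and 0.119). Mcm7 read 526, 521 and 546 CPM in wild type and 525, 483 and 514 CPM in the knockout, and its groups overlapped (-0.07 ± 0.10). It shares 10.8% of its exon bases with Ap4m1 on the other strand, which stood at 21.9 CPM in wild type.

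The 6 subunits form the ring in equal numbers, but their transcripts were unequal, and their order differed between the groups. Per kilobase of exon, wild-type levels were 237 ± 5.48 CPM for Mcm5, 220.4 ± 3.91 for Mcm3, 179 ± 4.44 for Mcm7, 146 ± 2.25 for Mcm6, 138 ± 1.25 for Mcm2 and 101 ± 1.42 for Mcm4 (SD, n = 3), in this order in each of the 3 libraries. In the knockout the order was Mcm7 at 171 ± 7.29 CPM per kilobase, Mcm3 at 142 ± 11.6, Mcm5 at 136 ± 14.1, Mcm2 at 109 ± 14.4, Mcm6 at 89.4 ± 2.28 and Mcm4 at 71.1 ± 3.06, again in each library. Mcm3 and Mcm5 differed there by less than their SD. Mcm7 thus went from the third place to the first, and Mcm4 was the lowest in all 6 libraries. Within a library, the ratio of Mcm5 to Mcm7 counts was 1.55 ± 0.0289 in wild type and 0.925 ± 0.0605 in the knockout, and that of Mcm6 to Mcm7 1.20 ± 0.0115 and 0.772 ± 0.0334 (SD, n = 3). These ratios need no scaling between libraries, though the length trend described below can enter them. The 6 genes summed to 3485 ± 40.6 CPM in wild type and 2423 ± 153 CPM in the knockout (SD, n = 3).

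**Figure D2:**
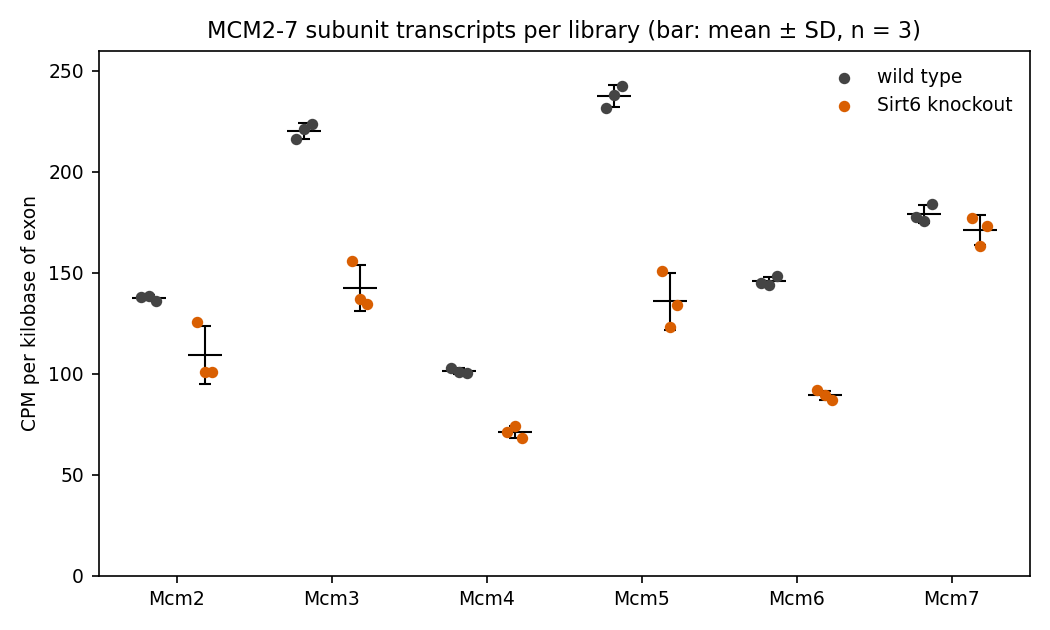
Level of each MCM2 to MCM7 subunit transcript in CPM per kilobase of exon, with a point for each of the 3 wild-type and 3 knockout libraries and a bar for the mean ± SD. Mcm5 and Mcm3 lead in wild type at 237 and 220.4, whereas Mcm7 leads in the knockout at 171.

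Among the 7 genes of origin firing, Gins2, Gins3 and Mcm10 fell, Cdc7 rose, and Cdc45, Gins1 and Gins4 did not pass the test. GINS is a ring of 4 proteins that joins CDC45 and the MCM helicase. Gins3 read 31.8, 32.2 and 34.1 CPM in wild type and 19.9, 19.9 and 22.3 CPM in the knockout, 1.58-fold lower (-0.66 ± 0.10). Its partners were at 0.09 ± 0.17 for Gins1, -0.32 ± 0.11 for Gins2 and -0.28 ± 0.13 for Gins4. Gins2 shares 70.7% of its exon bases with Gse1 on the other strand, which had 95.6 CPM in wild type and 34.1 CPM in the knockout, so the value of Gins2 is uncertain. Mcm10, which helps start the helicase, was at -0.31 ± 0.10, Cdc45 at 0.00 ± 0.09, and Cdc7, the kinase that fires origins, at 0.26 ± 0.10. The calls of Gins2 and Mcm10 were lost with total counts (adjusted p = 0.148 and 0.205, edgeR). Without wild-type replicates 1, 2 and 3 and knockout replicate 2, each in turn, adjusted p was 0.0612, 0.114, 0.0957 and 0.0956 for Gins2, 0.0834, 0.0681, 0.0655 and 0.0845 for Mcm10, and 0.0719, 0.144, 0.153 and 0.0737 for Cdc7 (edgeR). The Cdc7 call was also lost when low counts were not filtered (0.0602) and with the length trend described below removed (0.0726).

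MCM8 and MCM9 form a separate helicase that works in recombination, and their genes moved in opposite directions. Mcm8 read 27.1, 28.0 and 26.9 CPM in wild type and 38.0, 38.2 and 31.4 CPM in the knockout, 1.31-fold higher (0.39 ± 0.11). Mcm9 read 22.5, 23.7 and 24.1 CPM and 17.5, 16.7 and 13.0 CPM, 1.49-fold lower (-0.57 ± 0.12). The groups overlapped in neither gene, and knockout replicate 3 was the lowest knockout library in both. Mcm9 shares 17.0% of its exon bases with Asf1a on the other strand, a histone chaperone gene that also fell (-0.78 ± 0.17), so its value is uncertain.

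Polymerase alpha with primase makes the primers, and of its 4 genes Pola1 and Pola2 fell. Pola1, its catalytic subunit, read 215, 202 and 216 CPM in wild type and 170.2, 174 and 142 CPM in the knockout (-0.38 ± 0.10). Pola2, its accessory subunit, read 112, 117 and 122 CPM and 97.3, 82.8 and 85.5 CPM (-0.41 ± 0.10). The groups overlapped in neither gene. The primase genes Prim1 and Prim2 did not pass the test, at 0.29 ± 0.14 and -0.27 ± 0.12. With total counts the calls of Pola1 and Pola2 were lost (adjusted p = 0.0981 and 0.0570, edgeR), and that of Pola1 also without wild-type replicate 1 (0.0511).

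Of the 3 polymerase delta genes 0 were called in edgeR, and 0 in the authors' deposited table. Pold1, the catalytic subunit, was at -0.25 ± 0.14, Pold2 at 0.04 ± 0.09 and Pold3 at -0.03 ± 0.09. Pold1 was uneven in the knockout, at 129.9, 87.4 and 96.1 CPM against 123, 129 and 121 CPM in wild type, knockout replicate 1 lying above the other two. Polymerase epsilon copies the leading strand, and Pole, its catalytic subunit, was called lower at -0.31 ± 0.12. Pole had the largest adjusted p among the called members (0.0409, edgeR). It was lost with total counts (0.273), when genes under 1 CPM on average were filtered out (0.0572), without wild-type replicate 1, 2 or 3 (0.185, 0.0970 and 0.0552) and without knockout replicate 2 or 3 (0.116 and 0.0516). Pole2, Pole3 and Pole4, its smaller subunits, were at 0.20, -0.07 and 0.19 and were not called.

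Of the 6 genes of the clamp and its loader, and of the 3 genes of replication protein A, which coats single-stranded DNA, 0 were called in edgeR and 0 in the authors' deposited table. Pcna, which encodes the clamp and has processed pseudogene copies that could share its reads, read 576, 621 and 677 CPM in wild type and 380.3, 519 and 586 CPM in the knockout. Its highest knockout library reached above its lowest wild-type library, and its log2 fold change was -0.34 ± 0.15 (adjusted p = 0.0826, edgeR). Without knockout replicate 3, Pcna and Rfc3 were called lower (adjusted p = 0.0135 and 0.0327, edgeR). The loader genes Rfc1 to Rfc5 ranged from -0.24 for Rfc3 to 0.13 for Rfc5, and Rfc2, Rfc4 and Rfc5 share 19.1%, 13.4% and 15.4% of their exon bases with another gene. Rpa1, Rpa2 and Rpa3 were at -0.15 ± 0.10, -0.12 ± 0.09 and -0.09 ± 0.20. A gene that was not called is not thereby shown to be equal in the groups.

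Lig1 and Rrm2 fell while their partners in the same step did not pass the test. Lig1, the ligase that seals Okazaki fragments, read 179, 175 and 173 CPM in wild type and 128, 104 and 106 CPM in the knockout, 1.56-fold lower (-0.64 ± 0.11). Fen1, the nuclease that trims those fragments, read 118, 118 and 132 CPM and 126, 112 and 122 CPM (-0.03 ± 0.10). Fen1 overlaps an antisense gene over 78.8% of its exon bases, and its value is uncertain. The ratio of Lig1 to Fen1 was 1.51, 1.48 and 1.31 in wild type and 1.01, 0.925 and 0.870 in the knockout. The uncertain value of Fen1 enters this ratio. Lig1 has 3517 exon bases and Fen1 2422, so the length trend described below can enter it too.

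Ribonucleotide reductase makes deoxynucleotides, and its small subunit RRM2 is the one whose level follows S phase. Rrm2 read 347, 353 and 351 CPM in wild type and 133, 158 and 171 CPM in the knockout, 2.28-fold lower (-1.19 ± 0.11). The wild-type libraries were nearly level and the highest knockout library stood far below them. Rrm1, the large subunit, read 276, 268 and 277 CPM and 249, 248 and 238 CPM, with no overlap between the groups but no call (-0.16 ± 0.09, adjusted p = 0.154, edgeR). The ratio of Rrm2 to Rrm1 was 1.26, 1.32 and 1.27 in wild type and 0.533, 0.636 and 0.720 in the knockout. Rrm2 has 2193 exon bases and Rrm1 3997, so the length trend described below can enter this ratio. Tyms, which makes thymidylate, was at -0.22 ± 0.12 and was not called.

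**Figure D3:**
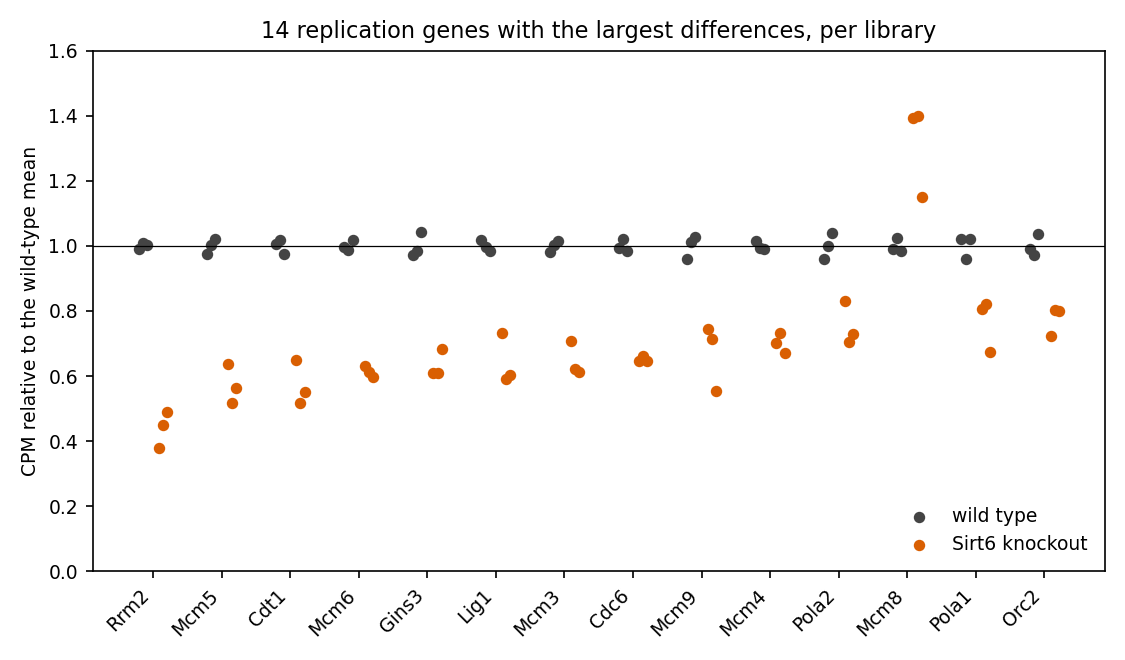
CPM of the 14 replication genes with the largest log2 fold changes, each divided by its wild-type mean, with a point for each of the 3 wild-type (dark) and 3 knockout (orange) libraries. The knockout libraries lie below wild type in 13 of the genes, furthest in Rrm2, and above it in Mcm8.

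Genes that work beside the replication machinery were taken from lists written with earlier results of these data known. Of 24 further fork and origin factors in the table, 9 fell and 0 rose (in the same test, 27.8% and 27.9% of all genes), with a median log2 fold change of -0.20. Dtl, the ubiquitin ligase adaptor that marks CDT1 for destruction in S phase, had the largest difference, from 153 ± 4.66 to 67.1 ± 5.13 CPM (SD, n = 3; -1.19 ± 0.10). Ticrr, which brings CDC45 to origins, was at -0.96 ± 0.14, the clamp loader subunit gene Chtf18 at -0.83 ± 0.12 and the ribonuclease subunit gene Rnaseh2b at -1.07 ± 0.15, and all 3 fell. Without knockout replicate 1 this list had 14 lower and 4 higher genes, and 4915 and 4961 of all 15068 genes tested. Of 13 genes that assemble chromatin behind the fork, 7 fell and 1 rose, with Uhrf1, which recruits the maintenance methyltransferase, at -0.58 ± 0.11 and the assembly factor gene Chaf1a at -0.50 ± 0.11. Its partner Chaf1b was called higher (0.32 ± 0.12), and that call was lost without wild-type replicate 1 or 2 or knockout replicate 2 or 3 (adjusted p = 0.167, 0.140, 0.0769 and 0.133, edgeR). This list came to 3, 3, 5 and 4 calls without wild-type replicates 1, 2 and 3 and knockout replicate 2, each in turn. Of 17 nucleotide supply genes 5 fell and 1 rose. Thymidine kinase Tk1 (-0.73 ± 0.11) and the deaminase gene Dctd (-0.66 ± 0.09) were among the falls. The rise was Impdh2 (0.29 ± 0.11), whose call was lost in 7 alternatives, with adjusted p up to 0.170 without wild-type replicate 1 (edgeR).

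Of 29 E2F, RB and G1/S genes, which govern entry into S phase, 18 fell and 6 rose, or 62.1% and 20.7% against 27.8% and 27.9% of all tested genes, with a median of -0.55. The D-type cyclin genes Ccnd2 and Ccnd3 and their kinase gene Cdk6 fell, at -4.22, -1.74 and -1.82 on the log2 scale. E2f8, a repressor, went from 67.6 ± 2.44 to 22.8 ± 2.76 CPM (SD, n = 3), and Ccne1, which encodes cyclin E1, from 316 ± 7.14 to 216 ± 12.5 CPM (-0.55 ± 0.09). The activator gene E2f1 was not called (-0.14 ± 0.15), but was called lower without knockout replicate 1 (adjusted p = 0.00644, edgeR). The other activator genes, E2f2 (-1.21 ± 0.15) and E2f3 (-1.08 ± 0.12), fell. Rb1, which restrains E2F, rose (0.76 ± 0.12), as did E2f5 (0.59 ± 0.11), Fbxo5 (0.47 ± 0.10) and the cyclin-dependent kinase inhibitor gene Cdkn1a (0.49 ± 0.12). The RB family gene Rbl2 fell (-0.62 ± 0.13), and Rbl1 was not called (0.08 ± 0.10). Cdkn1c, another inhibitor gene, fell from 87.9 ± 6.56 to 43.9 ± 4.77 CPM (SD, n = 3). Cdkn1b was not called (0.11 ± 0.09). The RB family genes and the inhibitor genes thus went both ways.

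Of 10 replication checkpoint genes 4 rose and 1 fell, where 27.9% of all tested genes rose and 27.8% fell. The rises were the kinase genes Chek2 (0.76 ± 0.09) and Atr (0.49 ± 0.11), the clamp gene Hus1 (0.54 ± 0.11) and its loader gene Rad17 (0.39 ± 0.09). The fall was the kinase gene Wee1 (-0.27 ± 0.10), whose call was lost in 7 alternatives, with adjusted p up to 0.357 with total counts (edgeR). Of 18 mitosis genes 4 fell and 1 rose, or 22.2% and 5.56%, with a median of 0.06. Cenpf, a kinetochore gene, was at -0.66 ± 0.12 and the spindle checkpoint kinase gene Bub1 at 0.40 ± 0.09. The calls of Aurkb (-0.31 ± 0.09), Mki67 (-0.42 ± 0.15) and Cdc20 (-0.27 ± 0.10) were lost with total counts (adjusted p = 0.140, 0.156 and 0.250, edgeR) and without wild-type replicate 1 (0.0503, 0.130 and 0.0967). The mitosis list had 2, 2 and 3 calls without wild-type replicate 1, wild-type replicate 2 and knockout replicate 2. Whether these lists differ from the replication genes was not tested.

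Differences between the groups were uneven along the genome. Chromosomes 1 and 8 stood lowest among the numbered chromosomes, with medians of -0.30 over 813 tested genes and -0.24 over 786, where the other numbered chromosomes lay between -0.11 and 0.17. They carry 10 members, namely Mcm3, Mcm6, Orc2 and Prim2 on chromosome 1 and Cdt1, Gins2, Gins3, Gins4, Mcm5 and Orc6 on chromosome 8. Of these 10, 7 were lower and 0 higher, with a median of -0.50. The corresponding shares of all 1599 tested genes on both chromosomes were 44.2% and 18.3%. Of the 39 members elsewhere, 10 were lower and 2 higher, or 25.6% and 5.13%, against 25.8% and 29.1% of other tested genes, with a median of -0.07. The 6 tested genes of the Y chromosome were all higher, with a median of 2.97.

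Several of the largest differences were measured against that shift. Less the median of its chromosome, Mcm5 was at -0.57, Cdt1 at -0.57, Gins3 at -0.42, Mcm6 at -0.41 and Mcm3 at -0.33. Orc2 and Gins2 came to -0.07 and -0.08, close to the median of their chromosomes. The 50 nearest tested genes of Mcm5 had a median of -0.32, those of Mcm6 -0.32 and those of Mcm3 -0.30. Those of Cdt1 and Gins3 had medians of -0.12 and -0.10, above the median of chromosome 8. Rrm2, on chromosome 12, Lig1, on chromosome 7, and Mcm4, on chromosome 16, lay among neighbours with medians of 0.29, 0.31 and 0.13, the opposite sign from their own. The part of the chromosome shift in the members' differences was not tested.

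**Figure D4:**
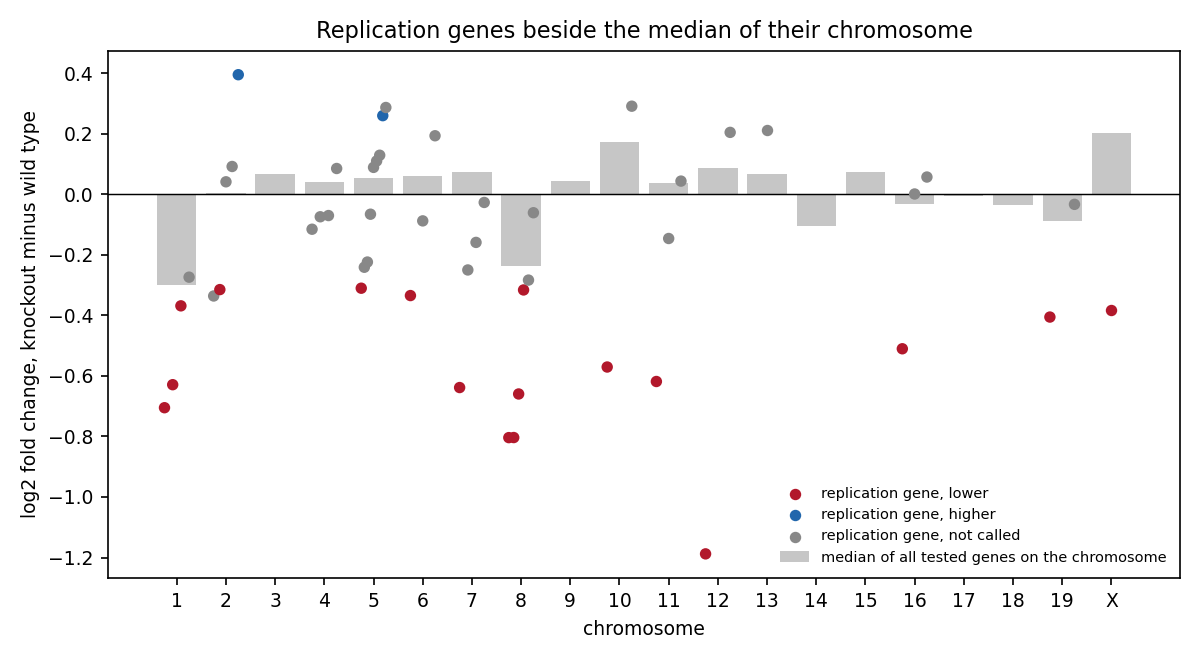
Log2 fold change (knockout minus wild type) of each replication gene as a point, by chromosome, beside a grey bar for the median of all tested genes on that chromosome. The bars of chromosomes 1 and 8 reach -0.30 and -0.24, and 7 of the 10 members there are red (lower); Rrm2 on chromosome 12 and Lig1 on chromosome 7 are low on chromosomes whose bars are above 0.

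Knockout libraries differed among themselves, and more so in short transcripts. The median coefficient of variation of the members was 3.64% in wild type and 10.8% in the knockout, and it was higher in the knockout in 45 of 49. Over 7716 tested genes in the same range of wild-type CPM the medians were 4.67% and 12.0%. The log2 ratio of knockout replicate 3 to knockout replicate 1 ran from -0.43 for Pold1 to 0.998 for Rpa3. Its correlation with log2 exon length across the 49 genes was -0.78 (Pearson) and -0.74 (Spearman), and -0.50 (Pearson) across all 14831 tested genes of known length. Genes are not independent replicates, all points share the same 2 libraries, and no p is given. The 14 members with under 2000 exon bases had a median log2 ratio of 0.56 between these libraries, and the 25 with at least 3000 had -0.17. Between wild-type replicates 3 and 1 the medians were 0.18 and 0.00, with a correlation of -0.58.

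**Figure D5:**
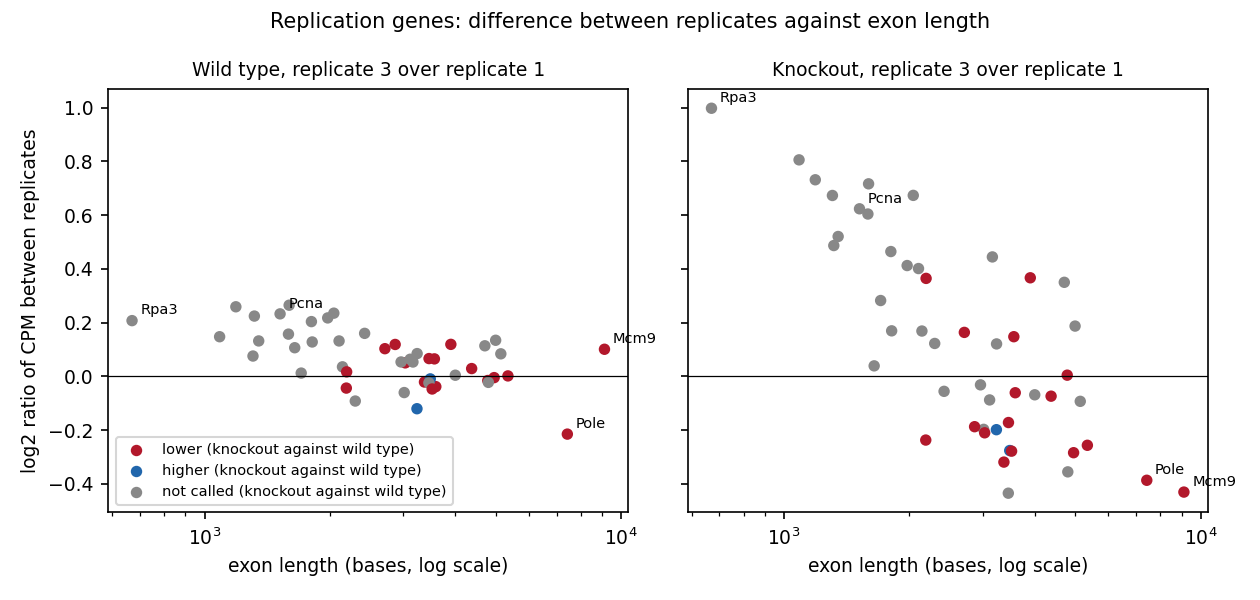
Log2 ratio of CPM between replicates 3 and 1 of the same group for each replication gene, against its exon length in bases on a log axis, for wild type (left) and knockout (right), coloured by the call of knockout against wild type. In the knockout the ratios fall from 0.998 for the shortest gene, Rpa3, to -0.43 for Pold1, and the shortest genes are all grey.

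Of the 14 members with under 2000 exon bases 0 were called (edgeR), of the 10 with at least 2000 and under 3000 bases 4 were lower, and of the 25 with at least 3000 bases 13 were lower and 2 higher. Among all tested genes in these bins of length, 20.0%, 23.5% and 33.0% were lower and 26.7%, 32.5% and 26.8% higher. Without knockout replicate 1, 8 members were higher and 18 lower, the added rises being Gins1, Gmnn, Orc5, Pole2, Pole4 and Prim1 and the added fall Pold1. Of all 15068 genes tested in that fit, 4961 were higher and 4915 lower, against 4182 and 4163 of 14988 with all libraries. Without knockout replicate 3, 2 members were higher and 21 lower, the added falls being Gins4, Pcna, Prim2, Rfc3 and Tyms, while Pole was lost. All genes tested in that fit numbered 15258, of which 4260 were higher and 4407 lower. With the trend of each library on exon length removed, an alternative chosen after seeing the data, 1 member was higher and 27 lower. In that fit 27.9% of all 14831 genes tested were higher and 35.4% lower, and their median was -0.07, against -0.23 for the members. The part of the length trend in the differences between the groups was not tested. Pcna stood at -0.48 (adjusted p = 0.00175, edgeR) with the trend removed. Cdc6, Cdt1, Gins3, Lig1, Mcm3, Mcm4, Mcm5, Mcm6, Mcm8, Mcm9 and Rrm2 were called with the same sign in all 14 alternative fits, 11 of the 19 called members.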

How the data were processed

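RNA sequencing libraries of 3 wild-type and 3 Sirt6 knockout samples were analysed. The deposited counts are raw reads per gene symbol. The submitters' processing notes list, with no roles, the tools DESeq2, HTSeq 0.6.1 and TopHat2 2.0.10, and mm9 as the build. For annotation and strand setting the sources used here give nothing. The authors' deposited table of knockout against wild type holds, per the file headers, a base mean (a normalized signal), the log2 fold change and standard error, a Wald score, and raw and adjusted p-values.

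Members and gene lists were chosen with earlier results of these data known. Counts were scaled by the trimmed mean of M values (TMM), filtered with filterByExpr, and tested, two-sided, with edgeR 4.0.16 (R 4.3.3) over 14988 genes, with Benjamini-Hochberg adjustment and a threshold of 0.05. CPM use TMM library sizes. Values per library are given for Mcm2 to Mcm7 and for the 14 members with the largest absolute log2 fold change (at least 5 CPM in the higher group). Those of Orc6, Gmnn, Pold1, Pcna, Fen1 and Rrm1 were added after their values were seen. From each other list, up to 4 called genes a direction with the smallest adjusted p could be named, besides E2f1, Ccne1 and Cdkn1a. E2f2, E2f3, Rbl1, Rbl2, Cdkn1b and Cdkn1c were added after their values were seen. Exon length and chromosome come from GENCODE M21 (GRCm38), and promoters and gene order from RefSeq (GRCm38.p6). Coordinates are on GRCm38 and not on the mm9 build of the counts.

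Total counts ran from 20107037 to 29267115. Libraries of a group differed by far more than counting error (chi-square per degree of freedom 3.83 to 11.7 between wild-type and 22.0 to 94.4 between knockout libraries), so the spread between libraries sets the precision. On simulated counts, 56% of genes changed 1.5-fold and 96% of those changed 2-fold were called, and 6.88% of calls were unchanged genes. The simulation changed only 200 genes, of at least 1 CPM, and gave both groups the same spread. The data differ in both, so these shares do not give the recovery among the members. Alternatives were other scalings and filters, DESeq2 1.42.0, limma-voom (limma 3.58.1), the replicate number as a block, stricter thresholds, each library left out, and genes off chromosomes 1, 8, X and Y. Removal of each library's trend on exon length was added after seeing the data.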

Additional observations from a re-analysis of the deposited data

How the results depend on the processing

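Of the 19 called members, 11 kept their call and sign in all 14 alternative fits, and 13 in the 6 fits that left out a library each. Of the 30 members not called, 14 stayed so in all of them. Scaling by total counts and not by TMM shifted the median of all tested genes from 0.01 to 0.13. Then 5 members were higher and 10 lower, and their median moved from -0.1461 to -0.0214 (from -0.16 to -0.16 relative to all tested genes), while 5114 of all genes were higher and 3101 lower. The chromatin assembly list then had 4 calls in place of 8. With the exon length trend removed, 1 member was higher and 27 lower, and 4144 and 5248 of all 14831 genes tested (4182 and 4163 of 14988 with it kept). With no filter on low counts 1 member was higher and 17 lower, and 4567 and 4329 of all 19696 genes tested. Members called higher ranged from 1 to 8 and members called lower from 12 to 21 when each library was left out in turn, the highest number of higher calls coming without knockout replicate 1. Calls among all genes moved too, from 3580 to 4961 higher and from 3352 to 4915 lower, of 15068 to 15295 genes tested. Both of these were also highest without knockout replicate 1. The ranges for the other lists were 9 to 18 calls for fork and origin factors, 3 to 9 for chromatin assembly and 2 to 6 for mitosis. Restricted to chromosomes other than 1, 8, X and Y, 9 of 38 members were lower and 2 higher. Of all tested genes off chromosomes 1 and 8, with X and Y kept, 25.8% were lower and 29.1% higher. At an adjusted p of 0.01, 1 member was higher and 13 lower (3259 and 3126 of all tested genes). Chromatin assembly and mitosis then had 3 calls each. A log2 fold change of at least 1 left 1889 higher and 1349 lower genes in all, 0 higher members and 1 lower member, 2 fork and origin factors, 9 E2F, RB and G1/S regulators, and 0 genes each of chromatin assembly, nucleotide supply, checkpoint and mitosis. Tipin, at 0.00 and not called, was called higher at 0.22 without knockout replicate 1.

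The labels do not say whether libraries of the same replicate number were paired, and the values left this unsettled. Deviations of same-numbered libraries from their group means correlated at 0.35, -0.07 and 0.37. Wild-type replicates 1 and 3 correlated best with the knockout library of the same number, and wild-type replicate 2 with knockout replicate 1. With the replicate number as a block, 4 members were higher and 23 lower (4670 and 4682 of all tested genes), the added ones being Orc5 and Prim1, higher, and Gins4, Pcna, Pold1, Prim2, Rfc3 and Tyms, lower. The number of libraries limits what can be said of members that were not called. The simulation changed 200 genes, whereas 8345 of 14988 were called in the data, so its 56% does not give the share of members missed.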
